A study of Mus musculus with 16 samples.

Results

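The NMDA receptor is a glutamate-gated cation channel assembled from subunits of 7 genes, and all 7 (Grin1, Grin2a, Grin2b, Grin2c, Grin2d, Grin3a and Grin3b) were followed here by their gene symbol among the 55471 lines of each of 2 expression tables. The tables hold polyA RNA-seq of neural stem cells (NSC) isolated from cortices of C57BL/6 mouse embryos at stage E15-16 and grown as monolayers with FGF2, which were transduced with a lentivirus carrying either a scrambled shRNA (shRNA CON, shCON in the plots) or an shRNA against the lncRNA RUS (shRNA RUS, shRUS in the plots). RNA was taken on day 5, when differentiation in Neurobasal medium with B27 and GlutaMAX began, and on day 7, and each of the 4 groups has 4 libraries, 16 together. All groups share the strain and the lentiviral vector, groups of a day share the medium, and embryos of both sexes were pooled for the cultures. A single shRNA against RUS was used, and the labels do not tell whether the 4 libraries of a group came from separate cultures, so that p-values measure the spread between these libraries. The study asked how NSC and their differentiating progeny change when RUS is depleted.

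Every functional NMDA receptor contains GluN1, the glycine-binding subunit encoded by Grin1, together with glutamate-binding GluN2 subunits (Grin2a to Grin2d), GluN3 subunits (Grin3a and Grin3b), or both. The GluN2 subunit sets the kinetics and magnesium sensitivity of the channel. GluN2B and GluN2D prevail in the embryonic brain, whereas GluN2A and GluN2C become abundant after birth. GluN3 subunits bind glycine, lower the calcium permeability of the channel, and GluN3A is known from immature neurons and from oligodendrocyte precursors.

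In the GRCm38 assembly (GENCODE vM21 annotation), Grin1 lies on the minus strand at chr2:25291181-25319187, Grin2a on the minus strand at chr16:9567898-9995560, and Grin2b on the minus strand at chr6:135713233-136173511. Grin2c lies on the minus strand at chr11:115249169-115267243, Grin2d on the minus strand at chr7:45831883-45878378, Grin3a on the minus strand at chr4:49661611-49845744, and Grin3b on the plus strand at chr10:79970715-79977190. Expression was measured over the exons of each gene. Exons of Grin1 overlap those of the antisense gene Grin1os over 2768 bases, those of Grin2d overlap Gm45441 over 2626 bases, those of Grin2b overlap Gm14329 over 1667 bases and those of Grin3b overlap Tmem259 over 1059 bases, in each case on the opposite strand. The sources used here do not state that counting used the strand, so reads of these stretches may belong to either gene.

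The RefSeq promoter table of GRCm38.p6 holds 4 of the 7 genes (Grin1, Grin2c, Grin2d and Grin3b). The 250 bases before the start of Grin1 (chr2:25319188-25319437) and of Grin2c (chr11:115267244-115267493) are printed 5′ to 3′ on the minus strand, because these are the genes with a promoter in the table for which the effect of shRNA RUS passed the test of a difference between the days, in each case narrowly and with a call that most left-out libraries end. Capitals mark CACGTG, the core of an E-box, in Grin1, and GGGCGG, a GC box, in Grin2c.
Grin1: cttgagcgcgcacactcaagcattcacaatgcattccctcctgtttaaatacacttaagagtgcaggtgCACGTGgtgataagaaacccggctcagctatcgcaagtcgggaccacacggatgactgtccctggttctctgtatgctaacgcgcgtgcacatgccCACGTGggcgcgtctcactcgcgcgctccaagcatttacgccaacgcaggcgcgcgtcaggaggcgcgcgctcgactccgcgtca
Grin2c: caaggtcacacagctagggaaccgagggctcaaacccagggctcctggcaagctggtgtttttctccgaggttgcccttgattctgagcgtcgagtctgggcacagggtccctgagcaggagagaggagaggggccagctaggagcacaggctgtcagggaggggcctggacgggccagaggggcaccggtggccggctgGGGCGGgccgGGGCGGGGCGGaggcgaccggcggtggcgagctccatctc
The Grin1 window held 2 E-box cores, which 6.02% of the 32851 promoter windows of the same length hold at least once on either strand. The Grin2c window held 3 GC boxes, a motif found in 32.7% of the windows. The cAMP response element TGACGTCA (1.55% of windows) and TTCAGCACC, the left part of the site of the repressor REST (0.301% of windows), were in none of the 4 windows. Such matches describe the letters of these windows and not binding.

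Values are TPM, transcript abundances corrected for length and scaled to a fixed sum per library, so that levels can be set side by side between genes. The tables hold no read counts and the depth of the libraries is unknown. Between 25612 and 29126 named lines per library were above 0. RUS, listed as Gm20754, was low in all libraries: on day 5 it measured 0.24, 0.11, 0.18 and 0.16 TPM with shRNA CON and 0.05, 0, 0.12 and 0.32 TPM with shRNA RUS. On day 7 it measured 0.70, 0.72, 0.26 and 0.54 TPM with shRNA CON and 0.54, 0.38, 0 and 0.04 TPM with shRNA RUS. The groups overlapped on both days. The mean with shRNA RUS was 71.0% of the control on day 5 (two-sided exact permutation test, p = 0.543) and 43.2% on day 7 (p = 0.143), where the smallest p that 4 against 4 libraries allow is 0.0286. Leaving out 1 library moved these shares between 32.9% and 94.7% on day 5 and between 25.2% and 57.7% on day 7. The depletion of RUS was therefore not detectable in these tables, and the groups go by their labels.

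The NSC markers Nes, Sox2 and Vim were present in all groups, with Vim between 5121 and 11741 TPM on average, next to astrocyte markers (Gfap between 664 and 2434 TPM), neuronal markers (Map2 between 100.03 and 331.7 TPM), oligodendrocyte lineage markers and microglia markers. The libraries are bulk samples of mixed cultures, in which fewer cells of a type and less RNA per cell cannot be told apart. For the tests, TPM were divided by a factor per library, which lay between 0.920 and 1.11 in the fit of day 5 and between 0.991 and 1.01 in that of day 7. In the fit over all 16 libraries, which gave the comparisons between the days, the factors were 0.845 to 1.02 for day 5 libraries and 1.07 to 1.10 for day 7 libraries. Fold changes are on the scale of log2(scaled TPM + 0.1). Without the factors, the all-gene median of the log2 fold changes moved from −0.06 to −0.21 for shRNA RUS against shRNA CON on day 5, and from 0.07 to 0.20 with shRNA CON and from 0.13 to 0.42 with shRNA RUS for day 7 against day 5. Fold changes of the members are to be read against these shifts.

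**Figure D1:**
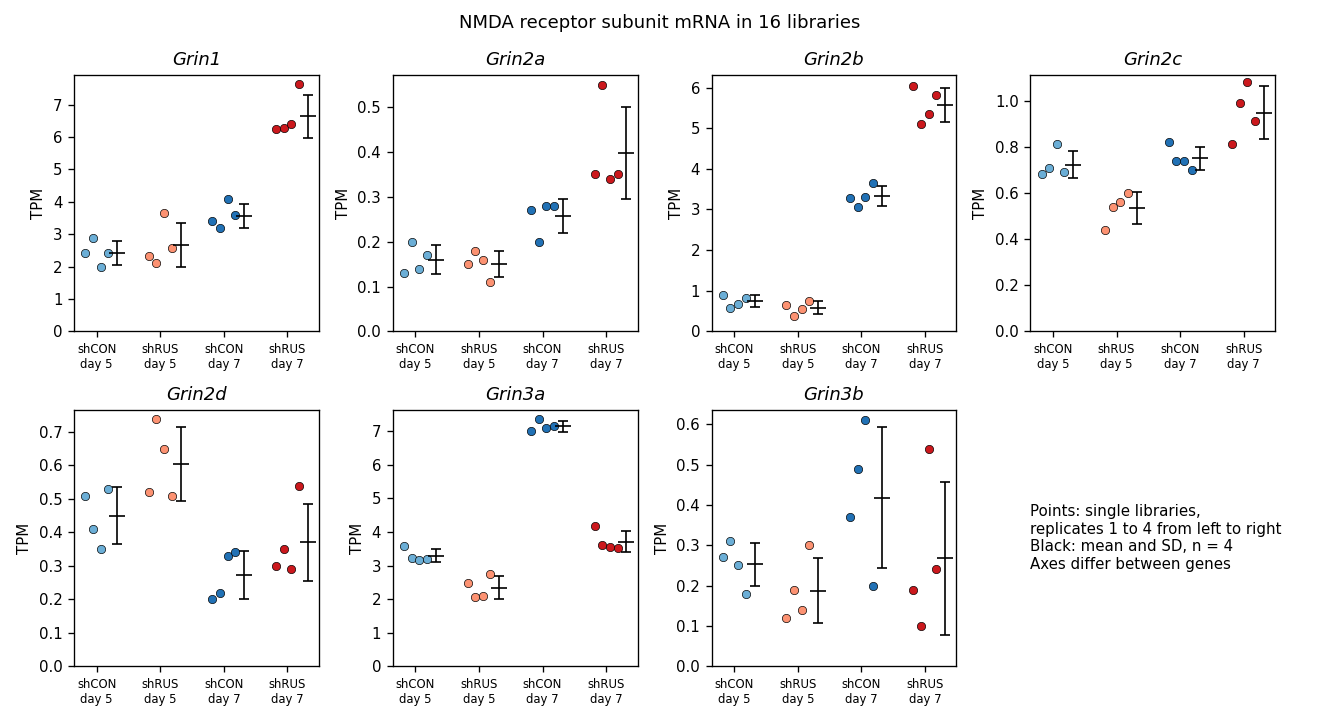
TPM (y axis, from 0, scaled for each gene) of the 7 NMDA receptor subunit genes in the 4 groups of 4 libraries; points are libraries, and black bars are mean and SD. On day 7, Grin1 and Grin2b were higher and Grin3a lower in all 4 shRNA RUS libraries than in any shRNA CON library.

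With the control shRNA on day 5, Grin3a was the most abundant subunit mRNA at 3.30 ± 0.191 TPM (mean ± SD, n = 4 here and below), followed by Grin1 at 2.42 ± 0.359 TPM. Grin2b (0.74 TPM) and Grin2c (0.723 TPM) came next and overlapped, Grin2d stood below them at 0.45 TPM, and Grin3b (0.253 TPM) and Grin2a (0.16 TPM) overlapped at the low end. By day 7, Grin3a remained first at 7.16 ± 0.162 TPM, and Grin1 (3.57 ± 0.375 TPM) and Grin2b (3.33 ± 0.244 TPM) overlapped behind it. With shRNA RUS the order was another. Grin1 and Grin3a overlapped at the top on day 5 (2.67 ± 0.681 and 2.35 ± 0.342 TPM). On day 7 Grin1 came first at 6.65 ± 0.665 TPM, followed by Grin2b at 5.57 ± 0.422 TPM and Grin3a at 3.71 ± 0.306 TPM, and none of these 3 overlapped with its neighbour. Grin2c followed at 0.948 TPM, and Grin2a, Grin2d and Grin3b stayed at or below 0.55 TPM in each library. All 7 genes passed the filter of a mean of 0.1 TPM in each fit, yet the 4 genes other than Grin1, Grin2b and Grin3a did not exceed 1.08 TPM in any library.

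On day 7, the mRNA of the obligatory subunit GluN1 and that of GluN2B rose with shRNA RUS, and that of GluN3A fell. Grin1 measured 3.41, 3.20, 4.08 and 3.58 TPM with shRNA CON and 6.26, 6.28, 6.41 and 7.64 TPM with shRNA RUS. The groups lay apart, and the fitted change was 1.84-fold (log2 fold change 0.88 ± 0.098 SE, limma adjusted p = 5.93e-05). Grin2b, the GluN2 subunit of the embryonic forebrain, measured 3.29, 3.07, 3.30 and 3.66 TPM with shRNA CON and 6.03, 5.11, 5.34 and 5.81 TPM with shRNA RUS. It rose in all shRNA RUS libraries, by 1.65-fold (log2 fold change 0.72 ± 0.088 SE, limma adjusted p = 1.08e-04). Grin3a measured 7.00, 7.38, 7.09 and 7.16 TPM with shRNA CON and 4.17, 3.60, 3.55 and 3.53 TPM with shRNA RUS. Every shRNA RUS library was below every control library, at 0.523 of the control level (log2 fold change −0.93 ± 0.076 SE, limma adjusted p = 8.22e-06). These calls were made under each alternative processing and with each of the 8 libraries left out in turn. Of the 7 genes, 2 rose and 1 fell, against 49.2% of all 24606 genes tested that were called on day 7 (23.4% higher and 25.8% lower), so the share of called subunits (42.9%) is near the background.

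The other 4 subunits did not pass the test on day 7. Grin2a, the GluN2 subunit of the mature forebrain, measured 0.27, 0.20, 0.28 and 0.28 TPM with shRNA CON and 0.35, 0.55, 0.34 and 0.35 TPM with shRNA RUS. These groups lay apart, but at this low level the fitted difference (log2 0.46, 95% interval −0.05 to 0.98) had a limma adjusted p of 0.126. Grin2c, the subunit of cerebellar granule cells and of astrocytes, measured 0.82, 0.74, 0.74 and 0.70 TPM with shRNA CON and 0.81, 0.99, 1.08 and 0.91 TPM with shRNA RUS, which overlapped (log2 0.29, interval −0.04 to 0.63, limma adjusted p = 0.133). Both were called when the variance was not modelled with a trend over expression. Grin2d, the subunit of interneurons and of the early brainstem, stayed at 0.20 to 0.34 TPM with shRNA CON and 0.29 to 0.54 TPM with shRNA RUS (log2 0.32, interval −0.25 to 0.90). Grin3b, known from motor neurons, spread from 0.20 to 0.61 TPM with shRNA CON and from 0.10 to 0.54 TPM with shRNA RUS (log2 −0.56, interval −1.47 to 0.35). The intervals of Grin2a and Grin2d include the change of Grin1 and that of Grin3b the change of Grin3a, whereas that of Grin2c includes neither.

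The transcript antisense to Grin1, Grin1os, measured 0.18, 0.18, 0.22 and 0.20 TPM with shRNA CON on day 7 and 0.63, 0.28, 0.38 and 0.51 TPM with shRNA RUS. It rose together with Grin1 (log2 fold change 0.86 ± 0.26 SE, limma adjusted p = 0.0199), at a level far below that of Grin1, and reads of the shared exonic stretch cannot be told apart without strand. Rest, the repressor of neuronal genes that is known to bind Grin1, rose as well, from 8.50 ± 0.421 to 14.4 ± 0.519 TPM on day 7 (log2 fold change 0.75, limma adjusted p = 3.66e-06).

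On day 5, when differentiation began, Grin3a fell with shRNA RUS, and Grin1 and Grin2b did not pass the test. Grin3a measured 3.58, 3.22, 3.17 and 3.21 TPM with shRNA CON and 2.49, 2.05, 2.08 and 2.76 TPM with shRNA RUS, which do not overlap. It was the 1 subunit of 7 called (log2 fold change −0.33 ± 0.11 SE, 0.796 of the control level, limma adjusted p = 0.0404), against 32.7% of all 22581 genes. This call is near the threshold: it was lost when any 1 of the 4 shRNA CON libraries, or replicate 2 or 3 of shRNA RUS, was left out (log2 fold changes −0.35 to −0.28, limma adjusted p between 0.0764 and 0.104). Grin1 measured 2.43, 2.87, 1.99 and 2.41 TPM with shRNA CON and 2.33, 2.12, 3.65 and 2.56 TPM with shRNA RUS. The groups overlapped, with replicate 3 of shRNA RUS above the rest (log2 0.26, interval −0.14 to 0.67, limma adjusted p = 0.303). Grin2b was at 0.90, 0.57, 0.68 and 0.81 TPM with shRNA CON and at 0.66, 0.38, 0.55 and 0.75 TPM with shRNA RUS (log2 −0.17, interval −0.65 to 0.31, limma adjusted p = 0.573), also with overlap.

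Grin2c was at 0.68, 0.71, 0.81 and 0.69 TPM with shRNA CON on day 5 and at 0.44, 0.54, 0.56 and 0.60 TPM with shRNA RUS. The groups lay apart, and the fitted difference did not pass the test (log2 −0.24, interval −0.60 to 0.12, limma adjusted p = 0.286). Of the 7 subunits, 2 (Grin2c and Grin3a) did not overlap between the shRNAs on day 5 and 4 (Grin1, Grin2a, Grin2b and Grin3a) on day 7, against 32.8% and 47.0% of all genes tested. Grin2d was at 0.51, 0.41, 0.35 and 0.53 TPM with shRNA CON and at 0.52, 0.74, 0.65 and 0.51 TPM with shRNA RUS (log2 0.49, interval 0.03 to 0.95, limma adjusted p = 0.0960). Under quantile normalization Grin2d was called higher on day 5 (log2 0.65, limma adjusted p = 0.0409), and Grin3a was not called (log2 −0.17). Grin2a and Grin3b stayed between 0.11 and 0.31 TPM in all day 5 libraries, and neither passed the test.

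**Figure D2:**
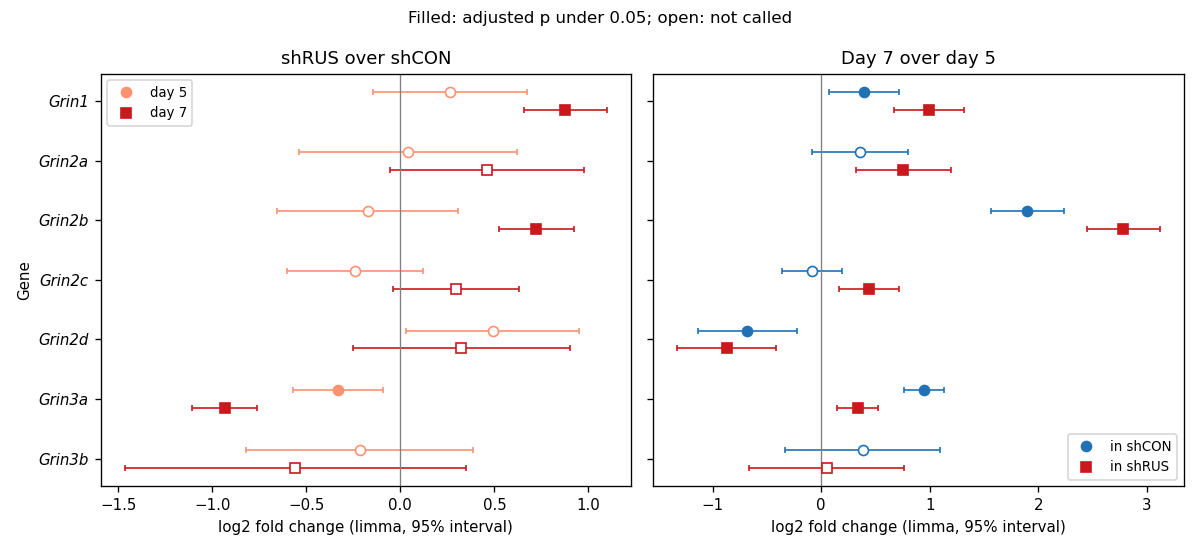
Limma log2 fold changes (x axis) of the 7 subunit genes (y axis) with 95% intervals, for shRNA RUS over shRNA CON on each day (left) and day 7 over day 5 within each shRNA (right); filled symbols passed an adjusted p of 0.05. Grin1 and Grin2b lie to the right and Grin3a to the left of 0 for shRNA RUS on day 7, whereas Grin2b has the farthest shift with time in both shRNAs.

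Between day 5 and day 7 the cultures gained subunit mRNA with either shRNA. The summed TPM of the 7 genes went from 8.04 ± 0.482 to 15.8 ± 0.531 with shRNA CON and from 7.07 ± 0.747 to 17.9 ± 0.869 with shRNA RUS. Grin2b changed most in both, by 3.73-fold with shRNA CON (log2 fold change 1.90 ± 0.16 SE, limma adjusted p = 7.69e-08) and 6.90-fold with shRNA RUS (log2 2.79 ± 0.16 SE, limma adjusted p = 7.14e-10). Grin3a rose 1.93-fold with shRNA CON (log2 0.95 ± 0.088 SE, limma adjusted p = 2.76e-07) and 1.26-fold with shRNA RUS (log2 0.33 ± 0.088 SE, limma adjusted p = 0.00365). Grin1 rose 1.99-fold with shRNA RUS (log2 1.00 ± 0.15 SE, limma adjusted p = 3.00e-05) and 1.32-fold with shRNA CON (log2 0.40 ± 0.15 SE, limma adjusted p = 0.0401). The latter call was lost without replicate 1, 3 or 4 of shRNA CON of either day (log2 0.31 to 0.41, limma adjusted p between 0.0593 and 0.131).

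Grin2d was the subunit that fell over these 2 days, to 0.623 of its day 5 level with shRNA CON (log2 fold change −0.68 ± 0.21 SE, limma adjusted p = 0.0151) and to 0.547 with shRNA RUS (log2 −0.87 ± 0.21 SE, limma adjusted p = 0.00228). Grin2a and Grin2c rose with shRNA RUS, by 1.69-fold and 1.36-fold (limma adjusted p = 0.00484 and 0.00887), and neither passed the test with shRNA CON (log2 0.36 with an interval of −0.08 to 0.80 for Grin2a, and log2 −0.08 with an interval of −0.37 to 0.20 for Grin2c, whose sign turns to 0.05 with TPM as deposited and which was called lower under quantile normalization, at log2 −0.36). Grin3b did not pass in either. In all, 4 of 7 genes were called with shRNA CON (3 higher, 1 lower) against 48.5% of all 23789 genes (26.9% higher and 21.6% lower), and 6 of 7 with shRNA RUS (5 higher, 1 lower) against 60.8% (35.0% higher and 25.8% lower). On the scaled values, the libraries of the days did not overlap for 3 subunits with shRNA CON (Grin2b, Grin2d and Grin3a), against 46.9% of all genes, and for all but Grin3b with shRNA RUS, against 52.5%. Under quantile normalization, Grin2a, Grin2c and Grin3a lost their call with shRNA RUS (log2 0.37, 0.10 and 0.06).

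The effect of shRNA RUS itself was compared between the days by an interaction term over the 16 libraries, which called 4 of the 7 subunits (3 higher, 1 lower) against 29.8% of all genes (15.2% higher and 14.6% lower). It was called for Grin2b (log2 difference of the effects 0.88 ± 0.22 SE, limma adjusted p = 0.00723), so that the effect on day 7 lay above that on day 5. It was called in the other direction for Grin3a (log2 −0.61 ± 0.12 SE, limma adjusted p = 0.00178), which was further below the control on day 7 than on day 5. Both calls were made under each alternative and with each library left out. Grin1 (log2 0.60 ± 0.21 SE, limma adjusted p = 0.0456) and Grin2c (log2 0.53 ± 0.19 SE, limma adjusted p = 0.0448) passed narrowly. The call for Grin1 was lost without any 1 of 13 of the 16 libraries, all but replicate 3 of shRNA CON on day 5, of shRNA RUS on day 5 and of shRNA CON on day 7 (log2 0.50 to 0.62, limma adjusted p between 0.0579 and 0.0934). The call for Grin2c was lost without any 1 of 12 libraries, all but replicate 1 of shRNA CON on either day, replicate 4 of shRNA RUS on day 5 and replicate 1 of shRNA RUS on day 7 (log2 0.46 to 0.55, limma adjusted p between 0.0529 and 0.0888).

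**Figure D3:**
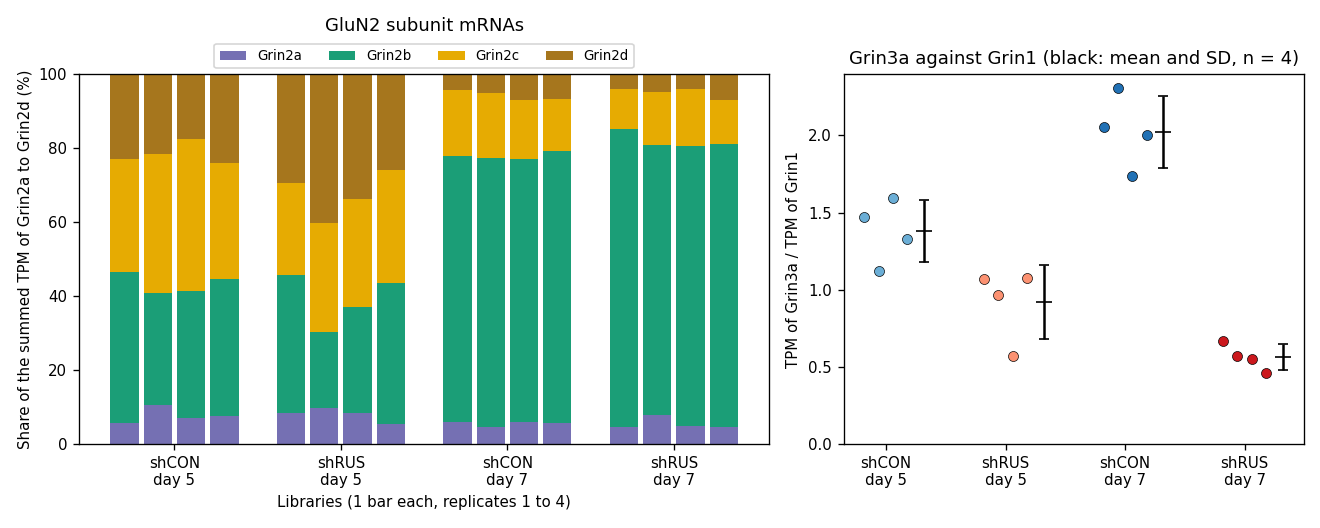
Left, share (%) of Grin2a to Grin2d in their summed TPM, with 1 bar per library in the 4 groups; right, ratio of Grin3a to Grin1 TPM, with points for libraries and black bars for mean and SD (n = 4). Grin2b takes 71.0% to 80.5% of the GluN2 mRNA in the day 7 libraries, and the ratio of Grin3a to Grin1 on day 7 is 1.74 to 2.31 with shRNA CON and 0.462 to 0.666 with shRNA RUS.

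The makeup of the subunit mRNA within a library does not depend on the scaling between libraries. On day 5 the GluN2 mRNA was divided between Grin2b (35.5% ± 4.36 of the summed Grin2 TPM), Grin2c (35.1% ± 4.96) and Grin2d (21.6% ± 2.80) with shRNA CON. With shRNA RUS on day 5, Grin2d took 32.3% ± 6.18, Grin2b 31.2% ± 8.21 and Grin2c 28.5% ± 2.47, and the range of Grin2d (25.9% to 40.2%) lay above that of shRNA CON (17.7% to 24.1%). On day 7 Grin2b prevailed with 72.2% ± 1.08 with shRNA CON and 76.4% ± 3.10 with shRNA RUS, which overlap, and Grin2d had dropped to 5.87% ± 1.31 and 5.05% ± 1.43. The share of Grin2b lay above its day 5 range in every day 7 library, and its ranges overlapped between the shRNAs on both days.

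The balance of GluN3A to GluN1 mRNA is given by the ratio of their genes. The ratio of Grin3a to Grin1 was 1.12 to 1.59 with shRNA CON on day 5 and 0.570 to 1.08 with shRNA RUS. On day 7 it was 1.74 to 2.31 with shRNA CON and 0.462 to 0.666 with shRNA RUS, so the mean went up with time in the control (1.38 to 2.02) and down with shRNA RUS (0.921 to 0.564). The libraries of the shRNAs lay apart on each day. Relative to Grin2b, Grin3a was at 2.16 ± 0.185 with shRNA CON and 0.667 ± 0.0430 with shRNA RUS on day 7. Grin3a made up 45.5% ± 2.10 of all subunit TPM with shRNA CON on day 7 and 20.8% ± 1.87 with shRNA RUS, whereas Grin1 made up 22.6% ± 1.63 and 37.1% ± 2.32.

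Markers of several cell types moved in the same comparisons. Their counts are to be read against the 49.2% of all genes called on day 7 (23.4% higher and 25.8% lower). Of 9 oligodendrocyte lineage markers, 7 fell with shRNA RUS on day 7 and none rose, and their summed level was 414.5 to 461.7 TPM with shRNA CON and 263 to 292.0 TPM with shRNA RUS. Pdgfra, the receptor that defines oligodendrocyte precursors, fell from 54.1 to 31.0 TPM (log2 fold change −0.83, limma adjusted p = 7.89e-04). On day 5 Pdgfra fell as well (log2 −1.14, limma adjusted p = 1.63e-04). Of 8 microglia markers, 8 fell (summed 287.4 to 317.3 TPM against 135.4 to 164.9 TPM), among them Csf1r, the receptor on which microglia depend, from 23.4 to 9.62 TPM (log2 −1.29, limma adjusted p = 6.84e-06). No marker of these lists was at 0 in all libraries of a group, and Mog of the oligodendrocyte list stayed below 1 TPM. Of 10 neuron markers, 4 rose and 3 fell, and their summed level overlapped (800 to 888 TPM against 774 to 914 TPM). Syt1, the calcium sensor of synaptic vesicles, rose from 6.67 to 9.99 TPM, whereas Map2, a dendritic microtubule protein, fell from 331.7 to 282.8 TPM (limma adjusted p = 6.79e-04 and 0.00995). Of 10 GABAergic interneuron markers, 4 rose and 3 fell, and of 8 astrocyte markers 3 rose and 2 fell, with a summed level of 3565 to 3675 TPM against 4267 to 4486 TPM. Of 8 NSC and radial glia markers, 2 rose and 3 fell, with sums of 6572 to 7077 TPM against 7092 to 7820 TPM. The astrocyte sum rose mostly with Aldoc (means of 1094 and 1675 TPM) and the NSC and radial glia sum with Vim (5121 and 5781 TPM). Endothelial, pericyte and meningeal markers summed to 22.2 to 24.3 TPM against 35.8 to 40.3 TPM, where Cldn5 was at 0 in all shRNA CON libraries and Cdh5 in all shRNA RUS libraries (2 rose and 1 fell of 7 tested). The rise of this sum was that of Pdgfrb, from 11.4 to 28.7 TPM on average, whereas Kdr fell from 6.30 to 2.51 TPM. The part of the marker shifts in the changes of Grin1, Grin2b and Grin3a was not tested.

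On day 5, 4 of the 9 oligodendrocyte lineage markers and 3 of the 8 microglia markers were lower with shRNA RUS and none higher, and the oligodendrocyte sums lay apart (242 to 316 TPM against 154 to 217 TPM), while the microglia sums overlapped (115 to 127 TPM against 99.4 to 122.6 TPM). The sums also lay apart for GABAergic interneuron markers (202 to 255 TPM against 163 to 186 TPM, with 4 of 10 lower and none higher), NSC and radial glia markers (11868 to 13245 TPM against 15674 to 17277 TPM, 3 of 8 higher and 3 lower) and astrocyte markers (5063 to 5608 TPM against 5906 to 6427 TPM, 2 of 8 higher and 1 lower). Vim (means of 8918 and 11741 TPM) and Fabp7 (3510 and 4497 TPM) carried the rise of the NSC and radial glia sum. Gfap (1797 and 2434 TPM) and Aldoc (1291 and 1719 TPM) carried that of the astrocyte sum. Sums are of TPM as deposited, whereas calls are on scaled TPM. Whether the sums of day 5 lie apart after scaling was not computed. Neuron markers summed to 479 to 598 TPM against 447 to 496 TPM, and endothelial, pericyte and meningeal markers to 34.2 to 39.4 TPM against 25.5 to 37.9 TPM, and both overlap. From day 5 to day 7, 7 of 10 neuron markers rose and 2 fell with shRNA CON, and 8 rose and 2 fell with shRNA RUS (median log2 fold changes 0.74 and 0.93). Oligodendrocyte lineage markers went the same way, with 6 of 9 higher and 1 lower with shRNA CON and 7 higher with shRNA RUS (medians 1.20 and 1.04), as did GABAergic interneuron markers, with 7 of 10 higher with shRNA CON and 7 higher and 2 lower with shRNA RUS (medians 0.55 and 0.85). Of 8 microglia markers, 6 rose with shRNA CON (median 0.96, mean sums of 121.8 and 304.0 TPM) and 4 rose and 1 fell with shRNA RUS (median 0.16, mean sums of 107.6 and 154.2 TPM). Of 8 astrocyte markers, 6 fell and 1 rose with shRNA CON and 5 fell and 1 rose with shRNA RUS (median −0.36 each). NSC and radial glia markers had 3 of 8 higher and 2 lower with shRNA CON and 3 higher and 4 lower with shRNA RUS. Of 7 tested endothelial, pericyte and meningeal markers, 4 fell and none rose with shRNA CON and 4 fell and 1 rose with shRNA RUS (medians −0.43 and −0.31). Of all genes, 32.7% were called between the shRNAs on day 5. Between the days, 48.5% were called with shRNA CON and 60.8% with shRNA RUS. The part of the marker shifts in the changes of Grin2b, Grin3a and Grin1 with time was not tested.

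The genes whose log2 levels followed each abundant subunit most closely over the 16 libraries were taken from 15898 genes whose mean reached 1 TPM. For Grin3a these were Pdp1 (Pearson r = 0.987), Lcp1 (r = 0.985) and Slc39a12 (r = 0.982). Pdp1 is a phosphatase of the mitochondrial pyruvate dehydrogenase complex, Lcp1 an actin-bundling protein of leukocytes and Slc39a12 a zinc transporter. As Grin3a did, Lcp1 went from 7.73 TPM on day 5 to 22.9 TPM on day 7 with shRNA CON and from 4.85 to 9.17 TPM with shRNA RUS. For Grin2b they were Xkr4 (r = 0.991), Lrrc7 (r = 0.990) and Rlf (r = 0.990), of which Lrrc7, a scaffold protein of the postsynaptic density, went from 1.73 to 6.05 TPM with shRNA CON and from 1.33 to 8.07 TPM with shRNA RUS. For Grin1 they were Fbxo10, Ino80dos and Tacc2 (r = 0.948 each). These coefficients describe 16 libraries that share the steps between the days and the shRNAs, and no p is given.

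Around the subunits, 56 genes of receptor trafficking, coagonist and glutamate handling, and signalling were counted, of which 53 had enough expression to be tested. On day 5, 11 rose and 12 fell (43.4% called against 32.7% of all genes), and on day 7, 24 rose and 14 fell (71.7% against 49.2%). The median log2 fold change of the 53 genes was −0.05 on day 5 and 0.12 on day 7, where the medians of all genes were −0.06 and −0.03. Without replicate 2 of shRNA CON, 15 rather than 23 were called on day 5.

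Of 19 genes that anchor or traffic the receptor, 11 rose and 1 fell on day 7 (4 and 4 on day 5). Dapk1, a kinase that acts on GluN2B, went from 26.3 to 47.1 TPM on day 7 (log2 fold change 0.84, limma adjusted p = 2.60e-06). Grina, which is named after the receptor although it does not form its channel, went from 317.3 ± 14.8 to 525.2 ± 39.6 TPM (log2 0.72, limma adjusted p = 4.77e-06). Lin7c, of the complex that carries GluN2B along microtubules, fell from 80.1 ± 5.04 to 43.2 ± 1.61 TPM (log2 −0.89, limma adjusted p = 1.01e-06). Of the other genes of that complex, named after their values were seen, Kif17, Apba1 and Lin7a rose (log2 0.39, 0.35 and 0.32), and Cask (log2 0.07) and Lin7b (log2 −0.14) did not pass the test.

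Of 9 tested genes of glycine and D-serine supply, 7 fell and none rose on day 7, with a median log2 fold change of −0.27, and 1 rose and 1 fell on day 5. Shmt1, which interconverts serine and glycine, was lower on both days, from 9.88 to 5.69 TPM on day 5 and from 10.7 to 7.41 TPM on day 7 (log2 −0.64 and −0.53, limma adjusted p = 0.00147 and 0.00138). Of 8 tested genes of glutamate supply and uptake, 2 rose and 3 fell on day 7 (1 and 2 on day 5). These are 62.5% and 37.5% called, against the same shares of all genes. Glul, the glutamine synthetase of astrocytes, went from 364.4 to 522.8 TPM (log2 0.52, limma adjusted p = 9.82e-07), and Slc1a1, a neuronal glutamate transporter, from 13.1 to 5.55 TPM (log2 −1.28, limma adjusted p = 4.52e-04).

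Of 17 genes that signal downstream of the receptor, 11 rose and 3 fell on day 7 (5 and 5 on day 5). Of the 4 calcium/calmodulin kinase genes, Camk2d, Camk2b and Camk2g rose (Camk2b and Camk2g, at log2 0.63 and 0.53, were chosen after their values were seen), and Camk2a fell. Camk2d rose from 82.2 ± 3.28 to 204 ± 7.60 TPM (log2 fold change 1.31, limma adjusted p = 7.98e-08), and Camk2a, the isoform of excitatory synapses, fell from 52.1 ± 2.37 to 21.9 ± 1.05 TPM (log2 −1.25, limma adjusted p = 1.53e-07). Crtc1, a coactivator of CREB, rose from 14.7 to 24.9 TPM (log2 0.75, limma adjusted p = 1.74e-05). Rasgrf2, an exchange factor that couples the receptor to Ras, fell from 3.67 to 1.35 TPM (log2 −1.39, limma adjusted p = 1.59e-05). Camk2d, Camk2a, Crtc1 and Rasgrf2 are named because, in each direction, they had the 2 largest changes, averaged over the days, among the genes of this list called on both days.

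**Figure D4:**
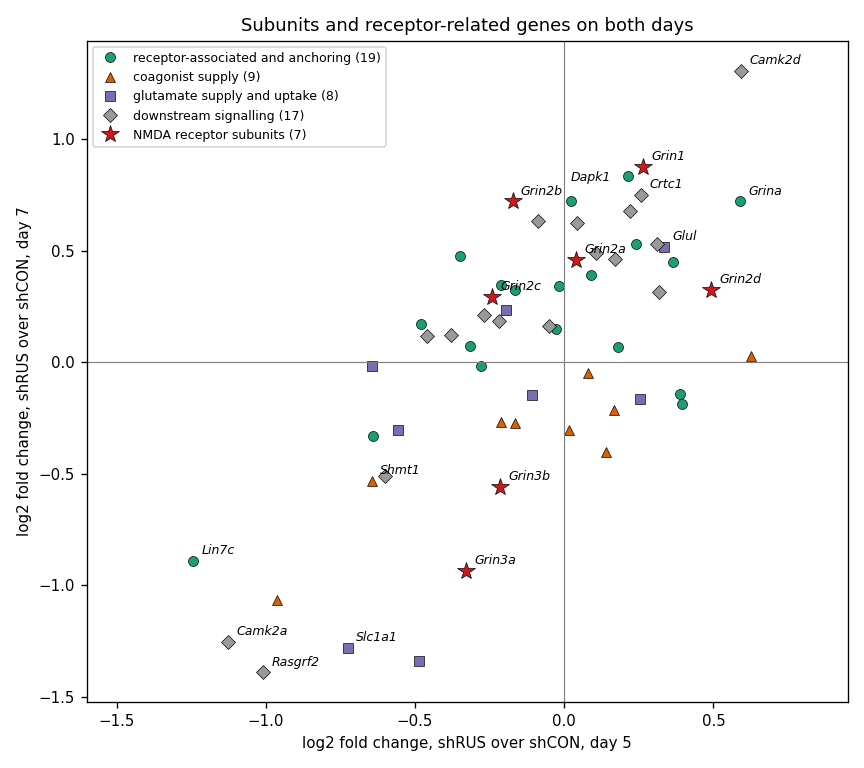
Limma log2 fold changes for shRNA RUS over shRNA CON on day 5 (x axis) and day 7 (y axis) of the 7 subunits (stars) and 53 receptor-related genes (other symbols by list); labels mark the subunits and the genes named in the text. Grin1 and Grin2b lie in the upper part with Dapk1, Crtc1 and Camk2d, and Grin3a in the lower left part with Lin7c, Camk2a, Rasgrf2 and Slc1a1.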

How the data were processed

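Libraries were grouped by shRNA and day from the labels. The authors aligned polyA RNA-seq reads with STAR to mm10 (GRCm38.99 transcripts), quantified them with RSEM and deposited a table per day with TPM rounded to 2 decimals; the submitters' processing notes name RSEM and DESeq, mm10 and GRCm38. The tables also hold the authors' own DESeq2 comparison (fold changes and p-values), which was not used. TPM keep no depth, so no count test, counting interval or detection limit was possible, and differences near 0.1 TPM are the least certain. No 2 libraries were identical. TPM were divided by median-ratio factors (genes of at least 1 TPM in all libraries of a fit), and genes whose mean reached 0.1 TPM were tested on log2(scaled TPM + 0.1) with limma 3.58.1 (R 4.3.3; lmFit, eBayes with trend, two-sided), with Benjamini-Hochberg adjustment over all genes tested and a threshold of 0.05. Each day was fitted with its 8 libraries. Comparisons between the days used all 16 libraries and those lines that carry an identical symbol at an identical line number (106 others were left out); the authors made the tables separately. On day 5, 3 lines without a symbol, with 0.134% to 0.386% of the TPM, were left out. Scripts were tested on simulated data. Named genes are the members, Gm20754, Rest, Grin1os as the antisense partner of Grin1, for each list and direction the 2 genes called on both days with the largest changes, and the 3 genes most correlated with each member of at least 1 TPM; only some of the named marker genes are printed. Members and lists were chosen with earlier results of these data known. Alternatives were other pseudocounts, filters and scalings, no trend, a replicate block, other sets of fitted libraries and leaving out each library. Python 3.11.15 and matplotlib 3.10.9 were used for figures.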

Additional observations from a re-analysis of the deposited data

Results flagged for a closer look

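In 5 of the 28 sets of 4 libraries (7 subunits in 4 groups), 1 library stood apart from the other 3 by Dixon's test at the 95% level, where chance gives about 1 in 20. Grin1 reached 7.64 TPM in replicate 4 of shRNA RUS on day 7, against 6.26 to 6.41 TPM in the others. Grin2a was at 0.20 TPM in replicate 2 of shRNA CON on day 7 and at 0.55 TPM in replicate 2 of shRNA RUS on day 7. Grin3a reached 3.58 TPM in replicate 1 of shRNA CON on day 5 and 4.17 TPM in replicate 1 of shRNA RUS on day 7. Leaving out any of these libraries kept the day 7 calls of Grin1 and Grin3a, and the day 5 call of Grin3a was lost without replicate 1 of shRNA CON, as it was without others.

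The interaction test called a difference in the effect of shRNA RUS between day 7 and day 5 for 4 of the 7 subunits, against 29.8% of all genes. The difference of the log2 fold changes was 0.88 for Grin2b (95% interval 0.41 to 1.36), −0.61 for Grin3a (−0.88 to −0.35), 0.60 for Grin1 (0.14 to 1.05) and 0.53 for Grin2c (0.13 to 0.92). The calls of Grin1 and Grin2c were lost without any 1 of 13 and of 12 of the 16 libraries (log2 0.50 to 0.62 and 0.46 to 0.55), and those of Grin2b and Grin3a were kept without each. Grin2c is the 1 of them whose fitted values lay on opposite sides of 0 in the day fits without either passing the test (log2 −0.24 on day 5 and 0.29 on day 7).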

How the results depend on the processing

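The day 7 calls of Grin1, Grin2b and Grin3a and the interaction calls of Grin2b and Grin3a were made under every alternative run. The day 5 call of Grin3a was lost without a filter on low values (log2 −0.33), under quantile normalization (−0.17) and with a replicate block (−0.33), which left 0 subunits called without the filter and with the block; under quantile normalization Grin2d was the 1 called (0.65); leaving out 1 library gave 0 to 1 called subunits and −0.38 to −0.28. On day 7, 5 subunits were called without a variance trend. The shRNA CON change of Grin1 over time lost its call without a filter (0.40), under quantile normalization (0.19) and with the block (0.40), with 0.31 to 0.49 over left-out libraries. With shRNA RUS over time, 3 subunits were called with a filter of 1 TPM, which 4 of the 7 do not reach, and 3 under quantile normalization, where Grin2a (0.37), Grin2c (0.10) and Grin3a (0.062) lost their call. The interaction was called for 2 subunits without a filter, under quantile normalization and with the block, and for 2 to 3 without 1 library. Grin1 lost it without a filter (0.60), under quantile normalization (0.57), without a trend (0.60) and with the block (0.60), with 0.50 to 0.76 over left-out libraries. Grin2c lost it with a pseudocount of 0.01 (0.59), without a filter (0.53), under quantile normalization (0.46) and with the block (0.53), with 0.46 to 0.58 over left-out libraries. The sign turned for Grin2a on day 5 with TPM as deposited (−0.057), 75th percentile scaling (−0.010) and left-out libraries (−0.030 to 0.14), for Grin2c over time in shRNA CON with TPM as deposited (0.048), and for Grin3b over time in shRNA RUS under quantile normalization (−0.35) and left-out libraries (−0.25 to 0.29); none of these was called with the turned sign. Grin2c over time in shRNA CON was called lower under quantile normalization (−0.36). Receptor-related genes called on day 5 were 15 to 25 over left-out libraries. Over all genes, TPM as deposited gave 1768 higher calls on day 5 against 3349, 3545 lower calls over time with shRNA RUS against 6135, and 5700 higher and 2053 lower interaction calls against 3626 and 3464; the share of higher calls went from 45.4% to 22.7% on day 5 (33.2% with 75th percentile scaling), from 55.5% to 71.4% and from 57.5% to 76.9% over time with shRNA CON and RUS, and from 51.1% to 73.5% for the interaction. Replicate numbers are shared by the groups. Over all tested genes, the deviations of same-numbered libraries from their group means had correlations of −0.10 to 0.03. With 4 libraries per group, these cannot settle whether the numbers pair the libraries, and the main tests did not pair them. The replicate block left 4966 of 7383 genes called on day 5. The cause of these shifts was not tested.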
